A study of Arabidopsis thaliana with 12 samples.

Results

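The genes described here are those encoded in the chloroplast genome of Arabidopsis thaliana, chosen as every row whose gene identifier begins with ATCG in the expression tables of both lines. They made up 88 of the 27655 genes listed. Genes of the chloroplast inverted repeat are listed as 2 copies, and 7 such pairs held identical values in every library, so 81 rows with distinct values were counted as genes. Among these, rps12 and ycf1 each enter under 2 identifiers with different values. The 81 comprised 14 genes of photosystem II, 5 of photosystem I, 6 of the cytochrome b6f complex, 6 of the ATP synthase, 11 of the NADH dehydrogenase-like (NDH) complex, the large subunit of Rubisco, 4 of the RNA polymerase, 13 of the small and 9 of the large ribosomal subunit, and 12 others. RNA-seq was made from whole seedlings aged 6 days, grown under continuous light, in 4 groups of 3 libraries. The groups were flu1-5 ex1 returned to light for 1 h after 4 h of darkness, flu1-5 ex1 at the end of 4 h of darkness, flu1-1 ex1 returned to light for 1 h after 4 h of darkness, and flu1-1 ex1 at the end of 4 h of darkness. All 4 groups carry ex1 together with an allele of flu, and no wild type or ex1 single mutant was among the samples analysed here. Lines were read from the library names, since the genotype entry is flu1-1/ex1 throughout, and all libraries carry the same batch entry. FLU transcripts stood at 14.0 to 17.0 TPM in flu1-5 ex1 light and 13.2 to 15.5 TPM in flu1-5 ex1 dark libraries, against 189.9 to 193 TPM in flu1-1 ex1 light and 184 to 197 TPM in flu1-1 ex1 dark libraries, so the libraries fall apart by line as named. EX1 transcripts were present in all groups, at 73.5 to 86.3 TPM in flu1-5 ex1 light, 44.8 to 45.8 TPM in flu1-5 ex1 dark, 49.1 to 52.7 TPM in flu1-1 ex1 light and 37.1 to 42.2 TPM in flu1-1 ex1 dark libraries; what the ex1 allele alters is not given in the sources used here, so this level checks nothing. A file header gives about 100 seedlings per replicate, and nothing states that the replicates were grown apart, so the tests measure the spread between these libraries, which may be technical.

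FLU is a chloroplast protein that restrains the tetrapyrrole pathway in darkness. In flu mutants protochlorophyllide builds up in the dark and sensitises the formation of singlet oxygen when light returns, and EXECUTER1, encoded by EX1, is a thylakoid-associated protein needed for many of the nuclear responses to that singlet oxygen. The light groups therefore differ from the dark groups in light itself, in any singlet oxygen formed in it and in elapsed time, which cannot be told apart in this design. The chloroplast genome encodes core subunits of the photosynthetic complexes and part of the organelle's own transcription and translation machinery. Its genes are read by a bacterial-type polymerase, built from the chloroplast-encoded rpo subunits and guided by nuclear-encoded sigma factors, and by phage-type polymerases that are wholly nuclear-encoded. Most are transcribed in clusters whose RNAs are then cut, spliced and edited, and the steady-state level of a transcript depends on its stability as well as on its synthesis.

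Transcripts of the chloroplast genome took a smaller part of the expression values in light libraries of both lines. Values are in TPM, an abundance unit that is scaled for gene length within a library and carries no record of depth. The listed genes summed to between 929954 and 935223 TPM in each library. The chloroplast genes held 1.82%, 1.21% and 1.38% of this total in flu1-5 ex1 light libraries 1 to 3, against 1.85%, 2.01% and 2.15% in flu1-5 ex1 dark libraries. In the other line they held 1.35%, 1.36% and 1.71% in flu1-1 ex1 light libraries, against 2.06%, 2.01% and 2.87% in flu1-1 ex1 dark libraries. Light and dark libraries did not overlap in either line, though in flu1-5 ex1 the gap was narrow, with 1.82% in light library 1 and 1.85% in dark library 1. The means were 1.47% ± 0.311 in light and 2.0% ± 0.147 in dark for flu1-5 ex1, a light to dark ratio of 0.735. For flu1-1 ex1 they were 1.47% ± 0.203 in light and 2.31% ± 0.483 in dark, a ratio of 0.637 (SD, n = 3 each). A two-sided exact permutation test gave p = 0.1 in both lines, the smallest value that 3 against 3 libraries allow, and 0.267 after Benjamini-Hochberg adjustment over 8 organelle comparisons. Flu1-5 ex1 and flu1-1 ex1 differed by -0.00309 percentage points in light (exact permutation p = 1.0) and by -0.311 in dark (exact permutation p = 0.4), less than the spread between libraries. Without flu1-1 ex1 dark library 3 the difference in dark was -0.0329 points. The light minus dark difference was -0.531 points in flu1-5 ex1 and -0.403 to -0.704 when 1 library was left out, and -0.84 in flu1-1 ex1, with -0.561 to -0.989 when 1 library was left out.

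**Figure D1:**
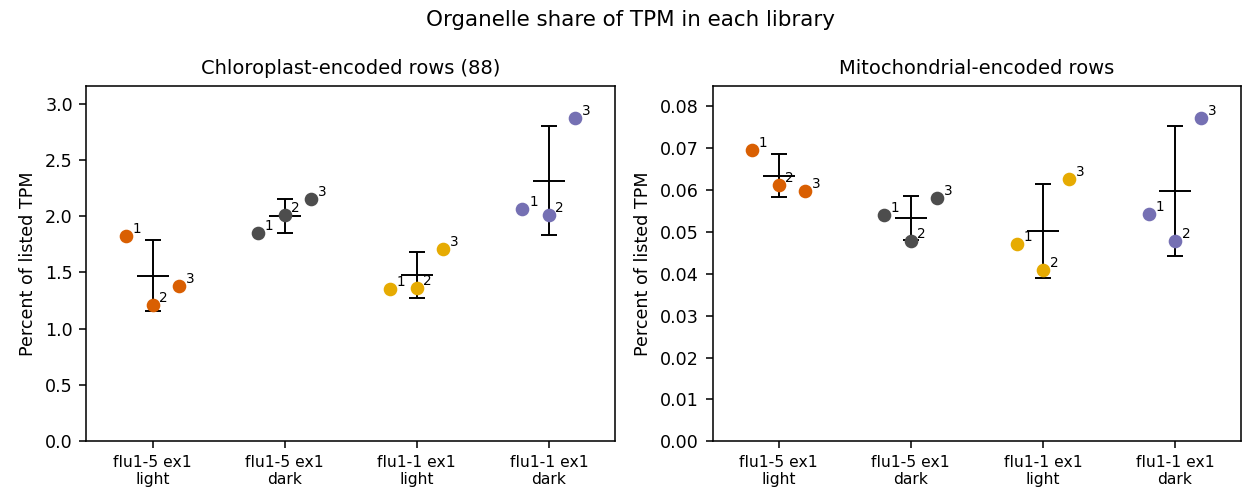
Percent of listed TPM (vertical axes, from 0) in chloroplast-encoded genes (left) and mitochondrial-encoded genes (right), with each library as a numbered point and bars for group mean and SD (n = 3). Light libraries held 1.21% to 1.82% of TPM in chloroplast genes and dark libraries 1.85% to 2.87%, and flu1-1 ex1 dark library 3 lies above all others in both plots.

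Mitochondrial genes, measured in the same way, took a far smaller part. They held 0.0635% ± 0.00522 of TPM in flu1-5 ex1 light libraries and 0.0534% ± 0.00524 in flu1-5 ex1 dark libraries (exact permutation p = 0.1), and 0.0502% ± 0.0111 in flu1-1 ex1 light libraries and 0.0598% ± 0.0154 in flu1-1 ex1 dark libraries (exact permutation p = 0.5; SD, n = 3 each). RBCS1A, a nuclear gene for the small Rubisco subunit and a marker of green tissue, averaged 16049 ± 425 TPM in flu1-5 ex1 light libraries and 17807 ± 41.6 TPM in flu1-5 ex1 dark libraries, and 15681 ± 251 TPM in flu1-1 ex1 light libraries and 16117 ± 565 TPM in flu1-1 ex1 dark libraries. Its changes were -0.15 ± 0.02 (SE, adjusted p = 0.000427) and -0.04 ± 0.03 (SE, adjusted p = 0.222). It belongs to the 48 nuclear subunit genes described below, which did not all move alike. In flu1-5 ex1, 36 of them fell and 5 rose, where 29.3% of all genes were called lower and 38.4% higher. In flu1-1 ex1, 36 fell and 4 rose, where 28.6% were called lower and 44.0% higher. The 15 root and root hair markers summed to 38.5 to 44.5 TPM in flu1-5 ex1 light libraries and 34.2 to 38.7 TPM in flu1-5 ex1 dark libraries, and to 39.2 to 40.5 TPM in flu1-1 ex1 light libraries and 35.9 to 38.3 TPM in flu1-1 ex1 dark libraries. Between 9 and 11 of the 15 averaged under 1 TPM in each group, and none was at 0 throughout. The members did not move together. SCR, a regulator of the endodermis, averaged 22.3 ± 0.559 TPM in flu1-5 ex1 light libraries and 13.5 ± 1.16 TPM in dark libraries, and 20.1 ± 0.307 TPM in flu1-1 ex1 light libraries and 12.5 ± 0.297 TPM in dark libraries, whereas CASP2, a Casparian strip protein, and PHO1, a phosphate exporter, were lower in light in both lines, with changes of -1.16 ± 0.13 (SE, adjusted p = 5.68e-05) and -0.25 ± 0.08 (SE, adjusted p = 0.0249) in flu1-5 ex1. TPM is a share of each library, so chloroplast values can also be lower because nuclear RNA is higher. In whole seedlings, fewer green cells, less chloroplast RNA per cell and more nuclear RNA cannot be told apart. The part of tissue makeup in the results was not tested.

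In 3 libraries the chloroplast values stood apart from the rest of their group. In flu1-1 ex1 dark library 3, 75 of the 81 genes had their highest value of the group. Relative to the mean of the other 2 libraries, the median gene stood at 1.61 times among 63 genes with a coding length of at least 150 bases and at 1.24 times among 13 shorter ones. The gene for ribosomal protein L20, rpl20, reached 1.94 times, whereas psbA was at 1.06 and rpl32 at 1.01 times, and the mitochondrial share was at 1.51 times. In flu1-5 ex1 light library 1, 79 of the 81 genes were highest in their group, with medians of 1.48 and 1.29 times for the longer and shorter genes and 1.15 times for the mitochondrial share. In flu1-1 ex1 light library 3, 70 of the 81 genes were highest in their group, with medians of 1.38 times for the longer and 1.05 times for the shorter genes and 1.42 times for the mitochondrial share. The part of RNA quality or library preparation in these shifts was not tested, and counts of calls without each library are given below.

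**Figure D2:**
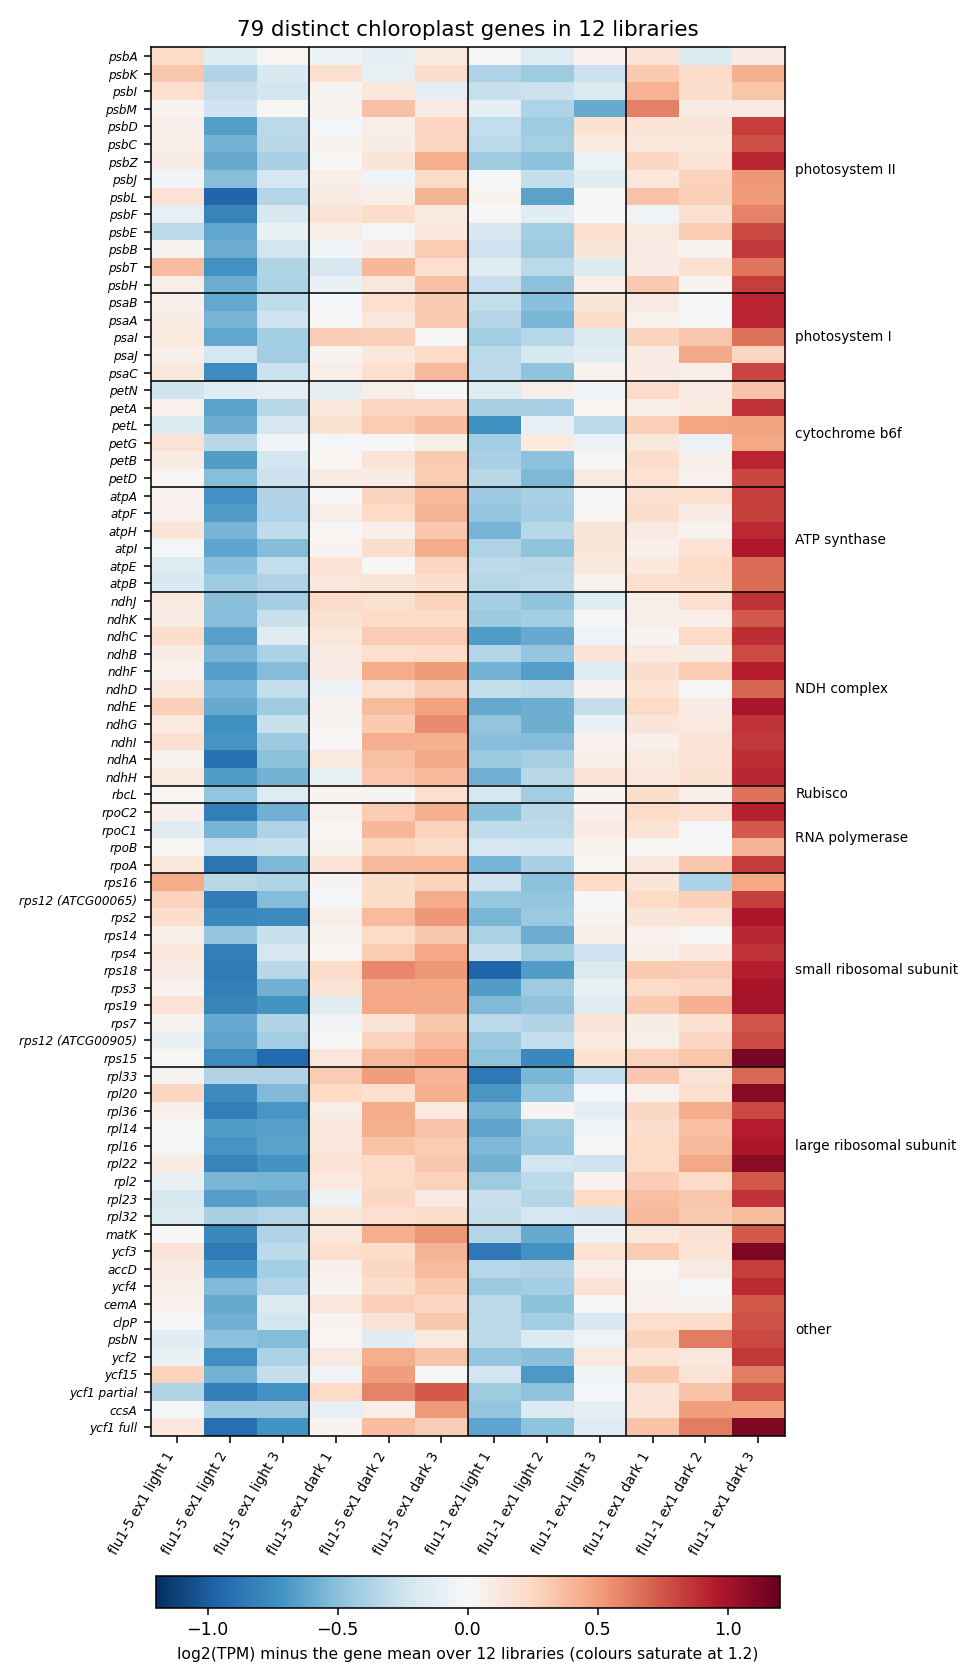
Heat map of 79 of the 81 distinct chloroplast genes (down the page, by class) in the 12 libraries (across), coloured by log2(TPM) minus the gene's mean over all libraries. Flu1-1 ex1 dark library 3 is the reddest column and flu1-5 ex1 light library 2 the bluest, with median log2(TPM + 1) values over all 81 of 7.61 and 6.01.

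Levels differed widely among the genes. On the length-scaled TPM scale, the most abundant transcript averaged over 12 libraries was rpl32, for ribosomal protein L32, at 2921 TPM. It was followed by atpH, for the membrane ring subunit of the ATP synthase, at 1360 TPM and by psbZ, for a small photosystem II subunit, at 907 TPM. These 3 genes made up 30.6% of the chloroplast TPM over all libraries, with 28.9% to 32.5% in single libraries. Next came psbK at 697, rbcL at 615 and psbH at 508 TPM. The gene for the D1 reaction centre protein, psbA, which is turned over rapidly in light, averaged 323 TPM, and the median gene 107 TPM. The lowest were ycf2 at 2.74 TPM, ccsA, needed for cytochrome c assembly, at 5.67 TPM, and the polymerase gene rpoC2 at 10.6 TPM. Many of the highest values belong to short genes, for which a length-scaled value is least certain. Chloroplast RNAs mostly lack long poly(A) tails, and how RNA was selected for these libraries is not given in the sources used here, so a level is that of the captured RNA.

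**Figure D3:**
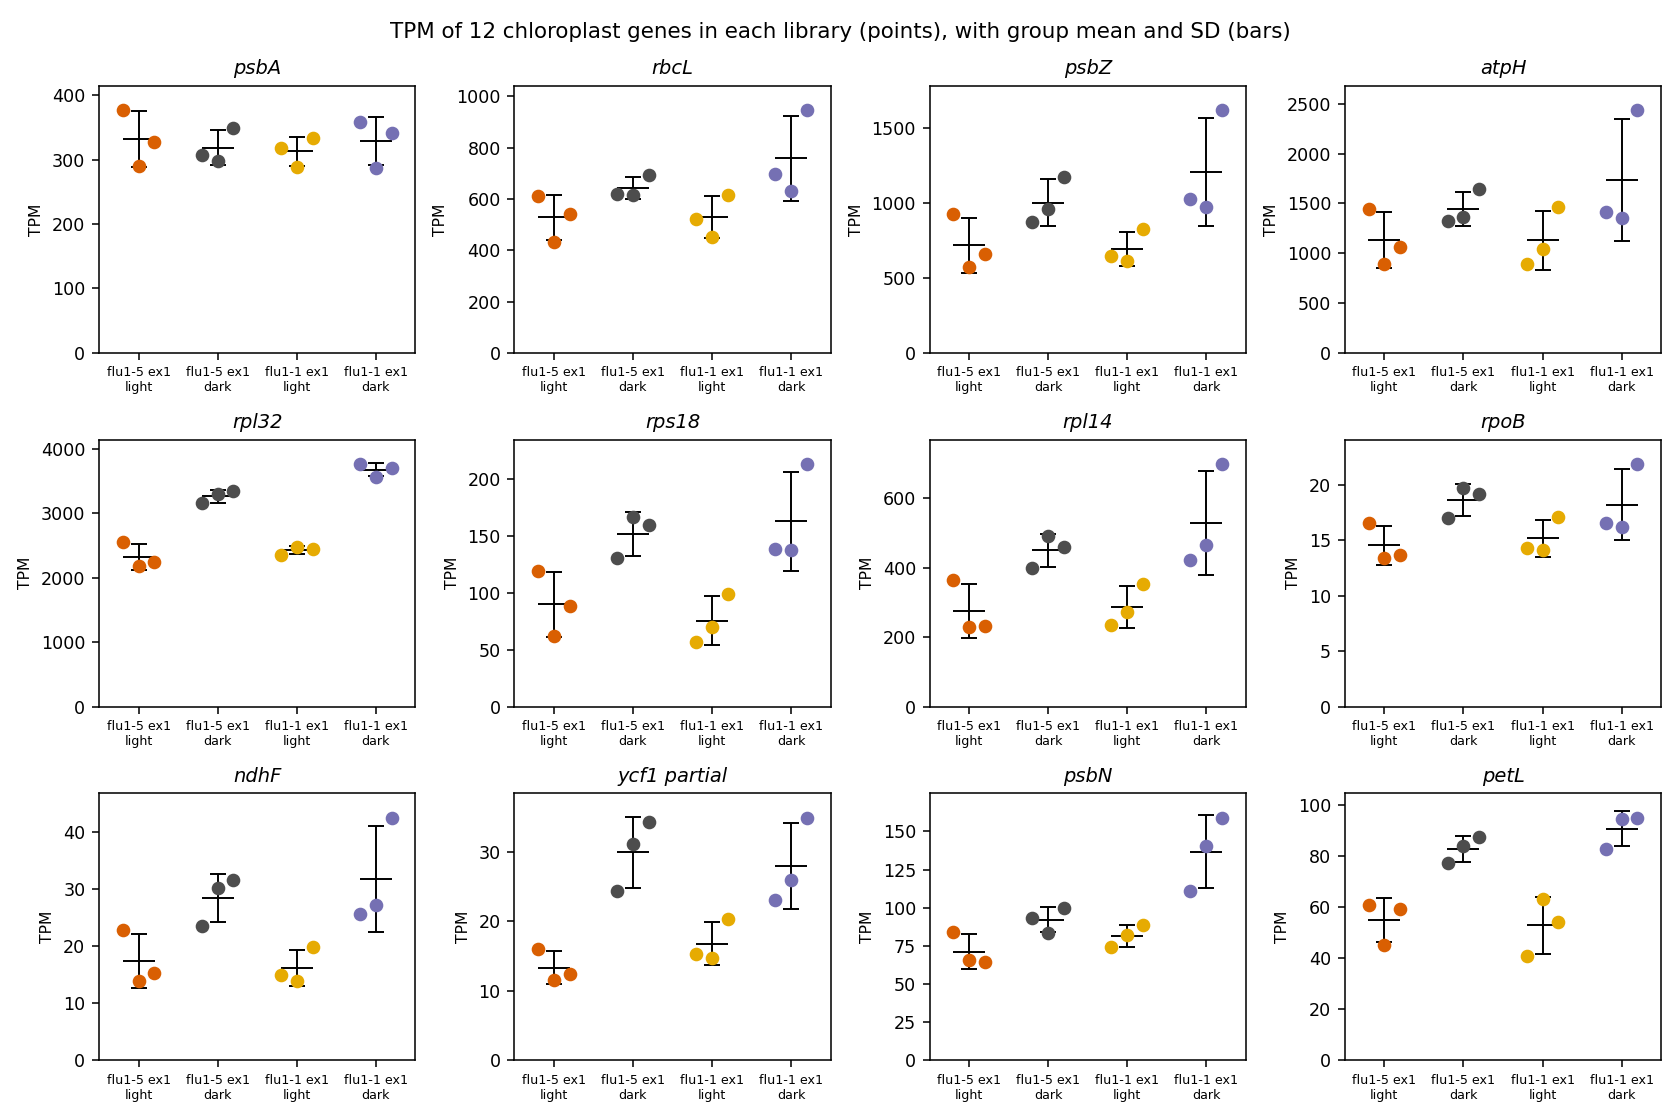
TPM of 12 chloroplast genes in each library (points), with group means and SD as bars (n = 3), each panel starting at 0. Light and dark libraries overlap for psbA in both lines, whereas those of rpl32, rpl14, rps18, ndhF, petL, ycf1 partial and rbcL do not overlap in either line.

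After 1 h of light, 44 of the 81 distinct genes had fallen and none had risen in flu1-5 ex1, and 41 had fallen and none had risen in flu1-1 ex1. The median log2 change was -0.50 in flu1-5 ex1 and -0.63 in flu1-1 ex1, on the log2(TPM + 1) scale used for every change below. Estimates were below 0 for 80 genes in flu1-5 ex1, psbA being the exception, and for all 81 in flu1-1 ex1. By class, 8 of the 9 genes of the large ribosomal subunit fell in each line, and 2 and 6 of the 14 genes of photosystem II. Calls used limma over every gene that averaged 1 TPM or more, Benjamini-Hochberg adjustment and a threshold of 0.05. Falls and rises are called changes in values scaled within a library, and not in amounts of RNA per cell. Across all genes tested, 29.3% were called lower and 38.4% higher in flu1-5 ex1, with a median change of 0.05, and 28.6% lower and 44.0% higher in flu1-1 ex1, with a median of 0.12. The chloroplast genes called lower were 54.3% and 50.6% of the 81. At an unadjusted p under 0.05 there were 58 genes in flu1-5 ex1 and 47 in flu1-1 ex1, and no share of all genes is given here at that threshold. Light libraries lay wholly below dark libraries for 40 genes in flu1-5 ex1, where 31.5% of all genes tested did so, and for 57 genes in flu1-1 ex1, where 30.1% did so.

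The direction was steadier than the calls. Leaving out flu1-5 ex1 light library 1 gave 76 genes called lower, and leaving out light library 2 or 3 gave 27 or 14. Leaving out flu1-5 ex1 dark library 1, 2 or 3 gave 26, 12 or 11. Leaving out flu1-1 ex1 light library 1, 2 or 3 gave 16, 21 or 49, and leaving out dark library 1, 2 or 3 gave 39, 33 or 39. No share of all genes is given here for these fits, so the counts show only how calls moved with the libraries. Between 79 and 81 estimates stayed below 0 in each of these fits. Genes and fits share libraries and are not independent, so this count adds no evidence beyond the difference in chloroplast share. In flu1-5 ex1 the median change was between -0.67, without light library 1, and -0.34, without light library 2. For flu1-1 ex1 the range ran from -0.78, without light library 3, to -0.43, without dark library 3. In flu1-5 ex1, 11 of the 44 genes were called in all 6 fits that left out 1 library, namely rpoB, rpoC1, atpB, atpE, petL, rpl2, rpl23, rpl32, rpl33, ycf2 and the partial ycf1 copy. In flu1-1 ex1, 15 of the 41 were, namely psbI, psbJ, psbK, psaI, psaJ, petL, petN, rps19, rpl32, rpl33, clpP, psbN, ccsA, ycf15 and the full ycf1 copy. The genes petL, rpl32 and rpl33 are in both sets, and the other light against dark calls of chloroplast genes on the TPM scale were each lost in at least 1 such fit. Both lines called 26 genes lower, 59.1% of the calls in flu1-5 ex1 and 63.4% of those in flu1-1 ex1. The share of all genes called lower in both lines is not given here. Across the 81 genes, changes in the lines had a Pearson r of 0.70 and a Spearman rho of 0.71, a description over genes that share libraries and are not independent.

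**Figure D4:**
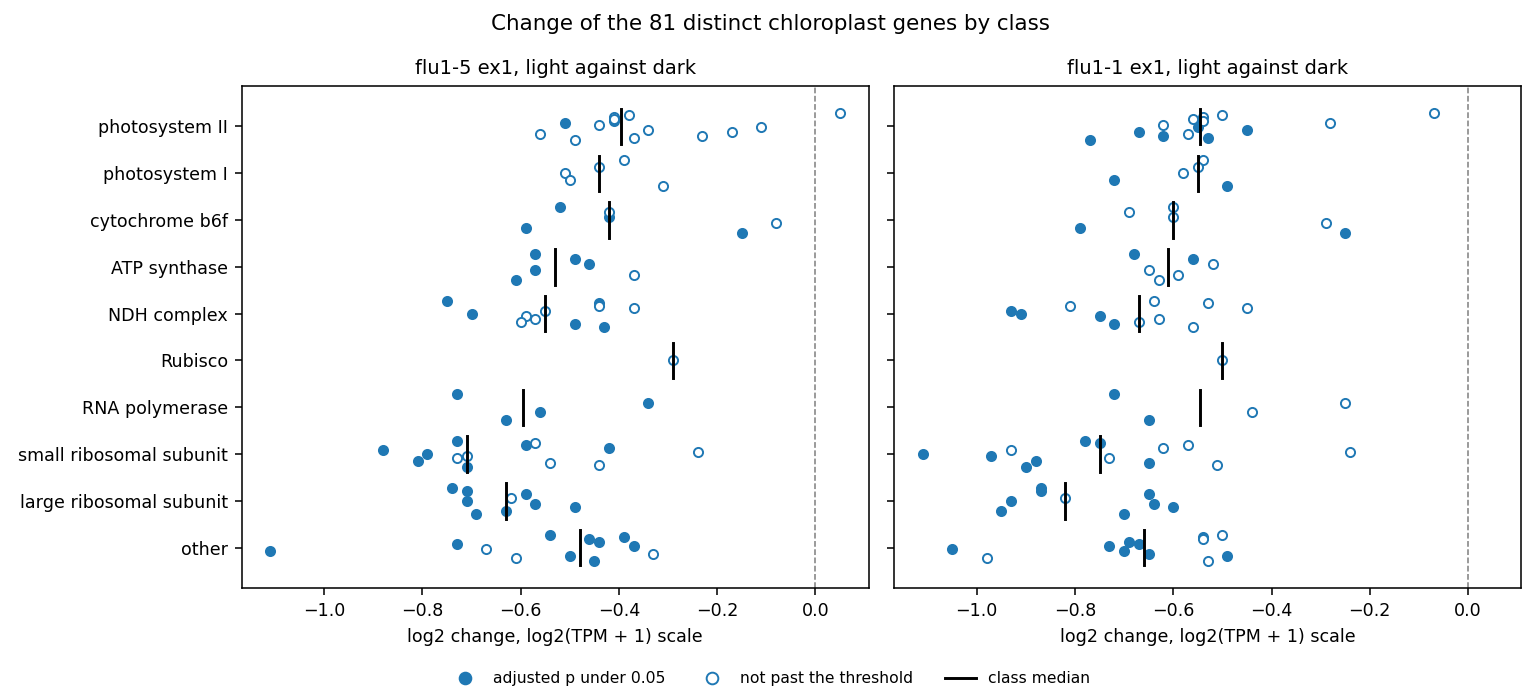
Log2 change in light against dark (horizontal axes) for each of the 81 distinct chloroplast genes, by class, in flu1-5 ex1 (left) and flu1-1 ex1 (right); filled points passed the threshold and black lines are class medians. Medians lie between -0.29 (Rubisco) and -0.71 (small ribosomal subunit) in flu1-5 ex1 and between -0.50 (Rubisco) and -0.82 (large ribosomal subunit) in flu1-1 ex1.

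Photosystem II splits water and feeds the electrons into the thylakoid chain. Of its 14 chloroplast genes, 2 fell in flu1-5 ex1 and 6 in flu1-1 ex1, where 29.3% and 28.6% of all genes fell. Median changes were -0.39 and -0.55. The gene psbA, for D1, had 377, 291 and 328 TPM in flu1-5 ex1 light libraries, against 308, 298 and 349.5 TPM in flu1-5 ex1 dark libraries. It had 318, 289 and 333 TPM in flu1-1 ex1 light libraries, against 359, 287 and 342 TPM in flu1-1 ex1 dark libraries. Light and dark libraries overlapped in both lines, and the changes were 0.05 ± 0.10 (SE, adjusted p = 0.659) in flu1-5 ex1 and -0.07 ± 0.09 (SE, adjusted p = 0.521) in flu1-1 ex1; without flu1-5 ex1 light library 1 the estimate in that line was -0.04. The gene psbD encodes D2, the partner of D1, and had 211, 128 and 161 TPM in flu1-5 ex1 light libraries, against 199.9, 212 and 242 TPM in flu1-5 ex1 dark libraries. In flu1-1 ex1 it had 164, 150.1 and 229 TPM in light libraries, against 226, 224 and 359.6 TPM in dark libraries. The groups overlapped in both lines, and the changes of -0.41 ± 0.18 (SE, adjusted p = 0.0869) and -0.56 ± 0.26 (SE, adjusted p = 0.109) did not pass the threshold. For psbB, which encodes the antenna protein CP47, means were 78.1 ± 16.6 TPM in flu1-5 ex1 light libraries and 101 ± 12 TPM in dark libraries, and 82.7 ± 17.2 TPM in flu1-1 ex1 light libraries and 120.2 ± 40.8 TPM in dark libraries (SD, n = 3 each). Its changes of -0.38 and -0.50 had adjusted p-values of 0.0837 and 0.164.

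Small photosystem II subunits gave the calls. The gene psbF, for a cytochrome b559 subunit, had 24.7, 15.2 and 23.3 TPM in flu1-5 ex1 light libraries, against 29.7, 30.8 and 28.6 TPM in flu1-5 ex1 dark libraries. These groups did not overlap, and psbF fell by 0.51 ± 0.17 (SE, adjusted p = 0.0335) in flu1-5 ex1. In flu1-1 ex1 it had 26.6, 24.1 and 26.4 TPM in light libraries, against 25.7, 30.1 and 39.9 TPM in dark libraries, which overlapped, with a change of -0.28 ± 0.15 (SE, adjusted p = 0.124). The gene psbZ had 648, 616 and 827 TPM in flu1-1 ex1 light libraries, against 1030, 976 and 1622 TPM in flu1-1 ex1 dark libraries. Every light library lay below every dark library, and the change was -0.77 ± 0.24 (SE, adjusted p = 0.0351). In flu1-5 ex1 psbZ had 926, 573 and 662 TPM in light libraries, against 872, 959 and 1176 TPM in dark libraries, where light library 1 lay within the dark range and the change was -0.49 ± 0.20 (SE, adjusted p = 0.0631). The neighbouring genes psbK and psbI, for small core subunits, fell in flu1-1 ex1, with changes of -0.67 ± 0.06 (SE, adjusted p = 1.67e-05) and -0.55 ± 0.05 (SE, adjusted p = 2.14e-05). In flu1-5 ex1 their changes were -0.17 ± 0.19 (SE, adjusted p = 0.448) and -0.11 ± 0.13 (SE, adjusted p = 0.48). The gene psbK had 861, 532 and 601 TPM in flu1-5 ex1 light libraries, against 778, 641 and 788 TPM in dark libraries, and 529, 507 and 571 TPM in flu1-1 ex1 light libraries, against 850.1, 796 and 916 TPM in dark libraries. Flu1-5 ex1 light library 1 was the highest of its line, and flu1-1 ex1 light libraries lay below all others but flu1-5 ex1 light library 2. Genes shorter than 150 bases, such as psbF and psbI, are the least certain of the class, and psbC overlaps psbD, so their reads are hard to part.

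Photosystem I reduces ferredoxin at the end of the thylakoid chain. None of its 5 genes fell in flu1-5 ex1 and 2 fell in flu1-1 ex1, where 29.3% and 28.6% of all genes fell. Medians were -0.44 and -0.55. Its reaction centre is formed by the products of psaA and psaB. The gene psaA had 152, 97.0 and 119.9 TPM in flu1-5 ex1 light libraries, against 143, 157 and 177 TPM in flu1-5 ex1 dark libraries. In flu1-1 ex1 it had 112, 97.9 and 165 TPM in light libraries, against 148, 142 and 269 TPM in dark libraries. Light and dark overlapped in both lines, with flu1-1 ex1 dark library 3 far above the rest, and the changes were -0.39 ± 0.17 (SE, adjusted p = 0.0833) and -0.54 ± 0.33 (SE, adjusted p = 0.2). The gene psaB followed it, with changes of -0.44 ± 0.18 (SE, adjusted p = 0.0637) in flu1-5 ex1 and -0.55 ± 0.31 (SE, adjusted p = 0.173) in flu1-1 ex1. The small subunit gene psaI had 208, 219 and 248 TPM in flu1-1 ex1 light libraries, against 334, 350.2 and 439 TPM in flu1-1 ex1 dark libraries. No light library reached the dark range, and psaI fell by 0.72 ± 0.12 (SE, adjusted p = 0.00186), whereas the change in flu1-5 ex1 was -0.50 ± 0.19 (SE, adjusted p = 0.0595). The gene psaJ, also for a small subunit, fell by 0.49 ± 0.10 (SE, adjusted p = 0.00315) in flu1-1 ex1.

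The cytochrome b6f complex links the photosystems. Of its 6 genes, 4 fell in flu1-5 ex1 and 2 in flu1-1 ex1, where 29.3% and 28.6% of all genes fell. Medians were -0.42 and -0.60. The gene petL, for a small subunit, had 60.7, 45.2 and 59.2 TPM in flu1-5 ex1 light libraries, against 77.2, 83.8 and 87.5 TPM in flu1-5 ex1 dark libraries. It had 40.9, 63.4 and 54.3 TPM in flu1-1 ex1 light libraries, against 82.8, 94.4 and 95.1 TPM in flu1-1 ex1 dark libraries. Light lay below dark in both lines, and petL fell with changes of -0.59 ± 0.11 (SE, adjusted p = 0.00216) in flu1-5 ex1 and -0.79 ± 0.16 (SE, adjusted p = 0.00571) in flu1-1 ex1. The gene petB, for cytochrome b6, had changes of -0.42 ± 0.19 (SE, adjusted p = 0.09) in flu1-5 ex1 and -0.69 ± 0.27 (SE, adjusted p = 0.0712) in flu1-1 ex1, neither past the threshold. The gene petN, for another small subunit, had 56.7, 66.0 and 61.5 TPM in flu1-1 ex1 light libraries, against 73.5, 67.1 and 79.4 TPM in flu1-1 ex1 dark libraries. It fell by a small amount in each line, -0.15 ± 0.05 (SE, adjusted p = 0.0413) in flu1-5 ex1 and -0.25 ± 0.07 (SE, adjusted p = 0.0122) in flu1-1 ex1.

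The large subunit of Rubisco, the carbon-fixing enzyme, is encoded by rbcL. It had 609.6, 434 and 542 TPM in flu1-5 ex1 light libraries, against 618, 617 and 693 TPM in flu1-5 ex1 dark libraries. It had 522, 452 and 617 TPM in flu1-1 ex1 light libraries, against 697, 629.8 and 946 TPM in flu1-1 ex1 dark libraries. Light libraries lay below dark libraries in both lines, by a narrow gap in flu1-5 ex1, and the changes of -0.29 ± 0.13 (SE, adjusted p = 0.0789) and -0.50 ± 0.20 (SE, adjusted p = 0.0693) did not pass the threshold.

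The ATP synthase turns the thylakoid proton gradient into ATP. Of its 6 genes, 5 fell in flu1-5 ex1 and 2 in flu1-1 ex1, where 29.3% and 28.6% of all genes fell. Medians were -0.53 and -0.61. The gene atpB, for the catalytic beta subunit, had 89.5, 75.5 and 78.7 TPM in flu1-5 ex1 light libraries, against 112, 113 and 118 TPM in flu1-5 ex1 dark libraries. It had 80.4, 82.0 and 105 TPM in flu1-1 ex1 light libraries, against 117, 118 and 162 TPM in flu1-1 ex1 dark libraries. Light lay below dark in both lines, and atpB fell with changes of -0.49 ± 0.06 (SE, adjusted p = 0.000107) in flu1-5 ex1 and -0.56 ± 0.17 (SE, adjusted p = 0.0289) in flu1-1 ex1. The gene atpE, for the epsilon subunit, overlaps atpB and fell by 0.46 ± 0.09 (SE, adjusted p = 0.00286) in flu1-5 ex1, with a change of -0.52 ± 0.20 (SE, adjusted p = 0.063) in flu1-1 ex1. The gene atpH had 1445, 893 and 1061 TPM in flu1-5 ex1 light libraries, against 1319, 1369 and 1641 TPM in flu1-5 ex1 dark libraries. In flu1-1 ex1 it had 892, 1042 and 1462 TPM in light libraries, against 1410, 1352 and 2437 TPM in dark libraries. The groups overlapped in both lines, and the changes were -0.37 ± 0.18 (SE, adjusted p = 0.117) and -0.59 ± 0.31 (SE, adjusted p = 0.145). The largest called changes of the class were those of atpI, for the proton channel subunit, at -0.61 ± 0.18 (SE, adjusted p = 0.0224) in flu1-5 ex1, and of atpA, for the alpha subunit, at -0.68 ± 0.23 (SE, adjusted p = 0.0429) in flu1-1 ex1. For atpI the means were 82.9 ± 19.6 TPM in flu1-5 ex1 light libraries and 126 ± 18.2 TPM in flu1-5 ex1 dark libraries (SD, n = 3 each).

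The NDH complex returns electrons from ferredoxin to the plastoquinone pool around photosystem I. Of its 11 chloroplast genes, 5 fell in flu1-5 ex1 and 4 in flu1-1 ex1, where 29.3% and 28.6% of all genes fell. Medians were -0.55 and -0.67. The gene ndhF, for a membrane subunit, had 22.9, 14.0 and 15.4 TPM in flu1-5 ex1 light libraries, against 23.6, 30.2 and 31.6 TPM in flu1-5 ex1 dark libraries. It had 14.9, 14.0 and 19.9 TPM in flu1-1 ex1 light libraries, against 25.6, 27.3 and 42.6 TPM in flu1-1 ex1 dark libraries. Light and dark libraries were separate in both lines, and ndhF fell with changes of -0.70 ± 0.20 (SE, adjusted p = 0.0183) and -0.91 ± 0.23 (SE, adjusted p = 0.0128). The gene ndhA fell most in flu1-5 ex1, where it had 95.3, 49.6 and 65.9 TPM in light libraries, against 100.3, 118 and 127 TPM in dark libraries. That change was -0.75 ± 0.23 (SE, adjusted p = 0.0274), and in flu1-1 ex1 it was -0.64 ± 0.27 (SE, adjusted p = 0.0839). The gene ndhE had 123, 126 and 155 TPM in flu1-1 ex1 light libraries, against 223, 201 and 373 TPM in flu1-1 ex1 dark libraries. These did not overlap and ndhE fell by 0.93 ± 0.27 (SE, adjusted p = 0.026), whereas in flu1-5 ex1 the change was -0.55 ± 0.24 (SE, adjusted p = 0.088). The inverted repeat gene ndhB fell by 0.44 ± 0.14 (SE, adjusted p = 0.0263) in flu1-5 ex1, with a change of -0.53 ± 0.24 (SE, adjusted p = 0.0956) in flu1-1 ex1. The genes ndhC and ndhK overlap, so their reads are hard to part.

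The chloroplast-encoded RNA polymerase has 4 subunit genes, and rpoB, rpoC1 and rpoC2 form 1 cluster. All 4 fell in flu1-5 ex1 and 2 fell in flu1-1 ex1, where 29.3% and 28.6% of all genes fell. Medians were -0.60 and -0.55. The gene rpoB, for the beta subunit, had 16.6, 13.4 and 13.7 TPM in flu1-5 ex1 light libraries, against 17.0, 19.7 and 19.2 TPM in flu1-5 ex1 dark libraries. It had 14.3, 14.1 and 17.1 TPM in flu1-1 ex1 light libraries, against 16.6, 16.2 and 21.9 TPM in flu1-1 ex1 dark libraries. The groups were separate in flu1-5 ex1, where rpoB fell by 0.34 ± 0.09 (SE, adjusted p = 0.00868), and overlapped in flu1-1 ex1, where the change was -0.25 ± 0.12 (SE, adjusted p = 0.0983). The gene rpoC1, for the beta' subunit, fell by 0.56 ± 0.12 (SE, adjusted p = 0.00301) in flu1-5 ex1, and its change in flu1-1 ex1 was -0.44 ± 0.21 (SE, adjusted p = 0.0998). The gene rpoC2, for the beta'' subunit, had 10.5, 5.65 and 6.73 TPM in flu1-5 ex1 light libraries, against 10.4, 12.4 and 13.5 TPM in dark libraries. Light library 1 lay within the dark range, and the gene fell by 0.63 ± 0.19 (SE, adjusted p = 0.0207). In flu1-1 ex1 it fell by 0.65 ± 0.22 (SE, adjusted p = 0.0296). The alpha subunit gene rpoA, which lies among ribosomal protein genes, had 50.9, 25.4 and 32.1 TPM in flu1-5 ex1 light libraries, against 52.2, 61.2 and 61.2 TPM in flu1-5 ex1 dark libraries. It had 31.7, 35.8 and 47.3 TPM in flu1-1 ex1 light libraries, against 51.1, 58.5 and 83.5 TPM in flu1-1 ex1 dark libraries. Light lay below dark in both lines, and rpoA fell with changes of -0.73 ± 0.24 (SE, adjusted p = 0.0344) and -0.72 ± 0.24 (SE, adjusted p = 0.0376).

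Most ribosomal protein genes fell. Of 9 genes of the large subunit, 8 fell in each line, with medians of -0.63 in flu1-5 ex1 and -0.82 in flu1-1 ex1. Of 13 genes of the small subunit, 7 fell in each line, with medians of -0.71 and -0.75. Among all genes, 29.3% fell in flu1-5 ex1 and 28.6% in flu1-1 ex1. The most abundant chloroplast transcript, rpl32, had 2557, 2181 and 2241 TPM in flu1-5 ex1 light libraries, against 3151, 3295 and 3339 TPM in flu1-5 ex1 dark libraries. It had 2353, 2476 and 2436 TPM in flu1-1 ex1 light libraries, against 3763, 3559 and 3705 TPM in flu1-1 ex1 dark libraries. Libraries of a group lay close together, light lay below dark in both lines, and rpl32 fell with changes of -0.49 ± 0.06 (SE, adjusted p = 9.8e-05) in flu1-5 ex1 and -0.60 ± 0.03 (SE, adjusted p = 1.55e-07) in flu1-1 ex1. The gene rpl33, for ribosomal protein L33, had 328, 249 and 249 TPM in flu1-5 ex1 light libraries, against 395, 454 and 423 TPM in flu1-5 ex1 dark libraries. It had 176, 219 and 261 TPM in flu1-1 ex1 light libraries, against 399, 359 and 514 TPM in flu1-1 ex1 dark libraries. The groups were separate in each line, and rpl33 fell with changes of -0.63 ± 0.12 (SE, adjusted p = 0.00323) and -0.95 ± 0.20 (SE, adjusted p = 0.00872). Its neighbour rps18, for ribosomal protein S18, had 119, 61.8 and 88.2 TPM in flu1-5 ex1 light libraries, against 130.0, 166 and 159 TPM in flu1-5 ex1 dark libraries. It had 57.0, 69.8 and 98.8 TPM in flu1-1 ex1 light libraries, against 138, 137 and 213 TPM in flu1-1 ex1 dark libraries. Again light lay below dark in both lines, with flu1-5 ex1 light library 1 nearest to the dark range, and rps18 fell with changes of -0.79 ± 0.23 (SE, adjusted p = 0.0226) and -1.11 ± 0.28 (SE, adjusted p = 0.0166).

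A long cluster carries, among other genes, rpoA, rpl14, rpl16, rps3, rps19 and rpl2. The gene rpl14, for ribosomal protein L14, had 366, 228 and 232 TPM in flu1-5 ex1 light libraries, against 399, 491 and 461 TPM in flu1-5 ex1 dark libraries. It had 235, 271 and 352 TPM in flu1-1 ex1 light libraries, against 422, 466 and 699 TPM in flu1-1 ex1 dark libraries. Light lay below dark in both lines, and rpl14 fell with changes of -0.74 ± 0.19 (SE, adjusted p = 0.0143) and -0.87 ± 0.25 (SE, adjusted p = 0.0276). The gene rps19, for ribosomal protein S19, had a change of -0.71 ± 0.30 (SE, adjusted p = 0.075) in flu1-5 ex1 and fell by 0.97 ± 0.22 (SE, adjusted p = 0.011) in flu1-1 ex1. The inverted repeat gene rpl2, for ribosomal protein L2, fell with changes of -0.59 ± 0.13 (SE, adjusted p = 0.00577) in flu1-5 ex1 and -0.65 ± 0.18 (SE, adjusted p = 0.0213) in flu1-1 ex1. Outside the cluster, rps15 had 83.9, 49.3 and 43.7 TPM in flu1-5 ex1 light libraries, against 91.7, 109 and 115 TPM in flu1-5 ex1 dark libraries. It fell by 0.88 ± 0.24 (SE, adjusted p = 0.0178) in flu1-5 ex1, and its change in flu1-1 ex1 was -0.93 ± 0.35 (SE, adjusted p = 0.0634). The gene rps2, which lies between the polymerase and ATP synthase genes, had changes of -0.73 ± 0.27 (SE, adjusted p = 0.0514) and -0.73 ± 0.28 (SE, adjusted p = 0.0616) and did not pass the threshold. The gene rps12 is assembled by trans-splicing and is split over several listed rows, so its level is uncertain.

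Among the 12 other genes, 9 fell in flu1-5 ex1 and 8 in flu1-1 ex1, where 29.3% and 28.6% of all genes fell. Medians were -0.48 and -0.66. The gene ycf1, for a large inner envelope protein, is listed as a full copy and as a partial copy at the edge of the inverted repeat. The partial copy had 16, 11.6 and 12.4 TPM in flu1-5 ex1 light libraries, against 24.3, 31.1 and 34.3 TPM in flu1-5 ex1 dark libraries. It had 15.3, 14.7 and 20.3 TPM in flu1-1 ex1 light libraries, against 23.0, 26 and 34.9 TPM in flu1-1 ex1 dark libraries. The full copy had 17.5, 8.54 and 9.74 TPM in flu1-5 ex1 light libraries, against 16.3, 20.6 and 19.6 TPM in flu1-5 ex1 dark libraries. In flu1-1 ex1 the full copy had 10.3, 11.4 and 14.4 TPM in light libraries, against 20.2, 24.4 and 34.8 TPM in dark libraries. The partial copy fell with changes of -1.11 ± 0.15 (SE, adjusted p = 0.000286) in flu1-5 ex1 and -0.70 ± 0.18 (SE, adjusted p = 0.0112) in flu1-1 ex1. The full copy had a change of -0.67 ± 0.25 (SE, adjusted p = 0.0541) in flu1-5 ex1, where light library 1 lay within the dark range, and fell by 1.05 ± 0.21 (SE, adjusted p = 0.0044) in flu1-1 ex1. The copies share sequence, so the division of reads between them is uncertain.

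The splicing factor gene matK had 43.5, 25.5 and 34.0 TPM in flu1-5 ex1 light libraries, against 47.8, 58.9 and 63.0 TPM in flu1-5 ex1 dark libraries. It fell with changes of -0.73 ± 0.20 (SE, adjusted p = 0.0175) in flu1-5 ex1 and -0.67 ± 0.21 (SE, adjusted p = 0.0315) in flu1-1 ex1. The gene clpP, for the catalytic subunit of the Clp protease, fell with changes of -0.44 ± 0.15 (SE, adjusted p = 0.0343) and -0.69 ± 0.16 (SE, adjusted p = 0.00932). For accD, a subunit of the acetyl-CoA carboxylase of fatty acid synthesis, the changes were -0.54 ± 0.20 (SE, adjusted p = 0.0459) in flu1-5 ex1, past the threshold, and -0.50 ± 0.25 (SE, adjusted p = 0.117) in flu1-1 ex1. The gene psbN, for an assembly factor, lies on the opposite strand within the psbB cluster, and the strand setting of the counting is not given in the sources used here. It had 74.0, 81.9 and 88.5 TPM in flu1-1 ex1 light libraries, against 111, 140.3 and 159 TPM in flu1-1 ex1 dark libraries. It fell with changes of -0.73 ± 0.14 (SE, adjusted p = 0.00423) in flu1-1 ex1 and -0.37 ± 0.11 (SE, adjusted p = 0.0215) in flu1-5 ex1.

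Changes in the makeup of the chloroplast transcripts were measured by scaling the chloroplast genes of each library to a common chloroplast total. On this scale psbA and rbcL rose in both lines, while rps18, rps3, rpl14, rpl16, rpl33 and ndhF fell in both. In flu1-5 ex1, 5 genes rose and 16 fell, and in flu1-1 ex1 10 rose and 10 fell. Of all genes tested with this scaling, 38.5% were called higher and 29.2% lower in flu1-5 ex1, and 44.1% higher and 28.4% lower in flu1-1 ex1. A change relative to the chloroplast total says that members moved unequally, and not which of them held its level.

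The gene psbA showed the largest rise relative to the chloroplast total in both lines. It made up 2.23%, 2.57% and 2.55% of chloroplast TPM in flu1-5 ex1 light libraries, against 1.78%, 1.59% and 1.75% in flu1-5 ex1 dark libraries. In flu1-1 ex1 it made up 2.52%, 2.27% and 2.09% in light libraries, against 1.87%, 1.53% and 1.27% in dark libraries. Every light library lay above every dark library. Within groups the psbA share was lowest in flu1-5 ex1 light library 1, flu1-1 ex1 light library 3 and flu1-1 ex1 dark library 3. These are the 3 libraries with high chloroplast values described above, and the part of such library shifts in the relative change was not tested. The relative change was 0.52 ± 0.06 (SE, adjusted p = 0.000109) in flu1-5 ex1 and 0.57 ± 0.15 (SE, adjusted p = 0.0123) in flu1-1 ex1, and it was called in all 6 fits of each line that left out 1 library. For rbcL the relative changes were 0.17 ± 0.06 (SE, adjusted p = 0.0237) and 0.14 ± 0.06 (SE, adjusted p = 0.04995), and these calls held in 3 of 6 such fits in flu1-5 ex1 and in 1 of 6 in flu1-1 ex1.

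Other relative rises were seen in 1 line each. In flu1-5 ex1 petG, for a small cytochrome b6f subunit, changed by 0.38 ± 0.05 (SE, adjusted p = 0.00024), psbI by 0.35 ± 0.09 (SE, adjusted p = 0.0107) and psbK by 0.29 ± 0.09 (SE, adjusted p = 0.026). In flu1-1 ex1 rpoB changed by 0.36 ± 0.05 (SE, adjusted p = 0.00019), psbF by 0.34 ± 0.09 (SE, adjusted p = 0.0104), petN by 0.38 ± 0.13 (SE, adjusted p = 0.0329) and rps16 by 0.39 ± 0.14 (SE, adjusted p = 0.0442). Smaller relative rises in flu1-1 ex1 were those of rpoC1 at 0.17, ndhD at 0.17, atpE at 0.12 and atpB at 0.08. The calls of petG, psbI, rpoB and psbF held in every fit of their line without 1 library, and those of the other genes named here were lost in 3 or more of the 6.

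Relative falls were led by ribosomal genes and ycf1. The gene rps18 fell with changes of -0.33 ± 0.10 (SE, adjusted p = 0.0187) in flu1-5 ex1 and -0.47 ± 0.11 (SE, adjusted p = 0.00588) in flu1-1 ex1. For rps3, which encodes ribosomal protein S3, the relative changes were -0.35 ± 0.07 (SE, adjusted p = 0.00309) and -0.24 ± 0.09 (SE, adjusted p = 0.0419). For rpl14 they were -0.27 ± 0.07 (SE, adjusted p = 0.011) and -0.23 ± 0.08 (SE, adjusted p = 0.0355), and for ndhF -0.25 ± 0.07 (SE, adjusted p = 0.0145) and -0.29 ± 0.07 (SE, adjusted p = 0.00611). For the partial ycf1 copy the relative change was -0.66 ± 0.08 (SE, adjusted p = 6.57e-05) in flu1-5 ex1, and for the full copy -0.44 ± 0.09 (SE, adjusted p = 0.00145) in flu1-1 ex1. Without 1 library the calls of both ycf1 copies held in all 6 fits of these lines. In flu1-5 ex1 those of rps3, rpl14 and rpl16 held in all 6, that of rps18 in 5, that of ndhF in 4 and that of rpl33 in 2. In flu1-1 ex1 those of rps18, rpl33 and ndhF held in all 6, and those of rps3, rpl14 and rpl16 in 2. Of the 9 large-subunit genes, 9 in flu1-5 ex1 and 8 in flu1-1 ex1 had relative changes below 0, with medians of -0.17 and -0.19. Of the 14 photosystem II genes, 3 and 2 were below 0, with medians of 0.07 and 0.09. Among the 13 small-subunit genes 10 and 9 were below 0, with medians of -0.25 and -0.11. Counts on this scale ranged from 7 to 22 lower and 4 to 8 higher in flu1-5 ex1, and from 6 to 15 lower and 5 to 11 higher in flu1-1 ex1, when 1 library was left out.

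**Figure D5:**
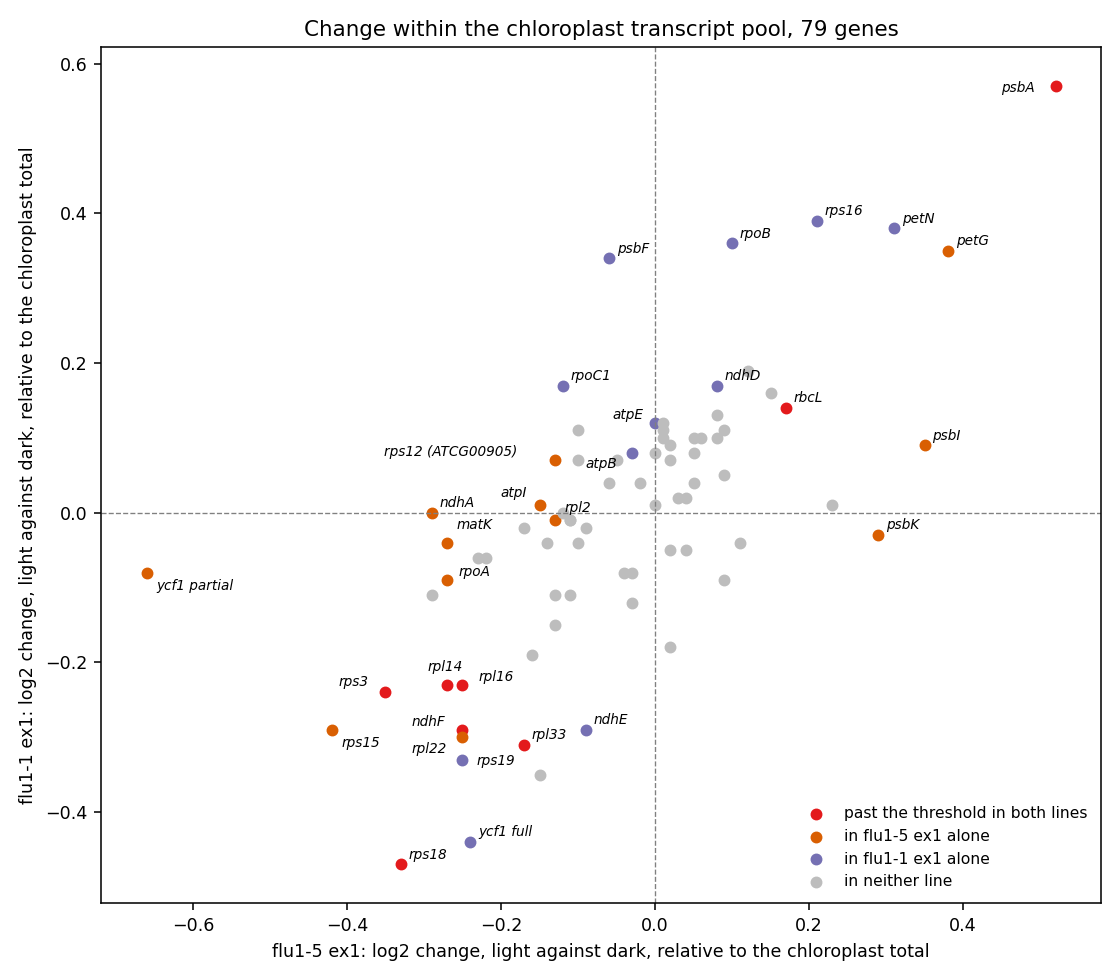
Log2 change in light against dark after scaling to a common chloroplast total, in flu1-5 ex1 (horizontal axis) and flu1-1 ex1 (vertical axis), for 79 of the 81 distinct genes; colours mark genes past the threshold in both lines, in 1 line or in neither. The gene psbA lies at 0.52 and 0.57, at the top right, and rps18 at -0.33 and -0.47, at the bottom left.

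Shares of the chloroplast TPM were also summed by class. With 3 against 3 libraries an exact permutation p cannot be below 0.1, so no class could pass after adjustment over 40 comparisons. Light and dark libraries of flu1-5 ex1 did not overlap for photosystem II, Rubisco and the RNA polymerase. Photosystem II genes held 25.5% ± 0.495 of chloroplast TPM in flu1-5 ex1 light libraries and 23.1% ± 0.758 in flu1-5 ex1 dark libraries (SD, n = 3 each; exact permutation p = 0.1). In flu1-1 ex1 they held 24.6% ± 1.44 in light libraries and 23.6% ± 0.786 in dark libraries (exact permutation p = 0.5), a difference of 0.964 points that was 0.139 without light library 1 and 1.48 without light library 2. The large ribosomal subunit held 26.8% ± 1.97 in flu1-5 ex1 light libraries and 28.5% ± 1.23 in dark libraries, and 27.7% ± 2.22 in flu1-1 ex1 light libraries and 28.6% ± 2.77 in dark libraries (exact permutation p = 0.2 and 0.6). Its difference of -1.72 points in flu1-5 ex1 was -0.926 without light library 1 and -2.82 without light library 2, and that of -0.911 in flu1-1 ex1 was 0.191 without light library 3 and -2.51 without dark library 3. The RNA polymerase genes held 0.522% ± 0.0295 in flu1-5 ex1 light libraries and 0.586% ± 0.0297 in dark libraries (exact permutation p = 0.1), and 0.562% ± 0.0271 in flu1-1 ex1 light libraries and 0.545% ± 0.0291 in dark libraries (exact permutation p = 0.5). NDH genes held 4.83% ± 0.404 and ATP synthase genes 13.0% ± 0.351 in flu1-5 ex1 light libraries, against 5.15% ± 0.262 and 12.7% ± 0.602 in dark libraries.

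The light responses of the lines were then compared with each other through the interaction term over all 12 libraries. No chloroplast gene passed the threshold, while 18.3% of all genes tested were called lower and 11.3% higher in flu1-5 ex1 than in flu1-1 ex1, 29.6% in all. The median difference, flu1-5 ex1 minus flu1-1 ex1, was 0.12, and standard errors ran from 0.07 to 0.50. Differences as large as the responses themselves could therefore go undetected for many genes. At an unadjusted p under 0.05 there was 1 gene, psbI, with 0.44 ± 0.16 (SE, adjusted p = 0.0681). Without flu1-5 ex1 light library 1 psbI passed at 0.29 ± 0.09 (SE, adjusted p = 0.0417), and without light library 2 both psbI, at 0.53 ± 0.16 (SE, adjusted p = 0.0326), and its neighbour psbK, at 0.65 ± 0.20 (SE, adjusted p = 0.0464), did. Quantile normalization called rpl32 alone, at 0.38 ± 0.11 (SE, adjusted p = 0.0276). For rpl32 the unscaled difference was 0.11 ± 0.07 (SE, adjusted p = 0.26).

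Relative to the chloroplast total, 2 genes differed in their light response. The partial ycf1 copy fell further in flu1-5 ex1, with a difference of -0.58 ± 0.11 (SE, adjusted p = 0.00106), and this call held in all 12 fits without 1 library. The full ycf1 copy lay on the other side of 0, at 0.20 ± 0.16 (SE, adjusted p = 0.383). Since the division of reads between the copies is uncertain, the result holds for the partial row and not for ycf1 as a gene. For rpoB the difference was -0.26 ± 0.09 (SE, adjusted p = 0.0479), held in 2 of the 12. Of all genes tested with this scaling, 18.3% were called lower and 11.3% higher.

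In light, no chloroplast gene passed the threshold between flu1-5 ex1 and flu1-1 ex1, and none had an unadjusted p under 0.05. Of all genes tested, 21.0% were called lower and 18.1% higher in flu1-5 ex1. The gene rpl32, for instance, had 2557, 2181 and 2241 TPM in flu1-5 ex1 light libraries, against 2353, 2476 and 2436 TPM in flu1-1 ex1 light libraries, with a difference of -0.06 ± 0.05 (SE, adjusted p = 0.366). Without flu1-5 ex1 light library 1 it was called lower in flu1-5 ex1, the 1 gene to be so, at -0.13 ± 0.03 (SE, adjusted p = 0.00977). Relative to the chloroplast total rpl33 was higher in flu1-5 ex1 by 0.35 ± 0.08 (SE, adjusted p = 0.00312), and rpl23, rpl2 and the partial ycf1 copy were lower, with differences of -0.33 ± 0.07 (SE, adjusted p = 0.00162), -0.14 ± 0.05 (SE, adjusted p = 0.031) and -0.30 ± 0.07 (SE, adjusted p = 0.00659). When 1 library was left out, the calls of rpl33, rpl23 and the partial ycf1 copy held in all 6 fits and that of rpl2 in 2. With this scaling too, 21.0% of all genes were called lower and 18.1% higher.

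In dark, 3 chloroplast genes, 3.7% of the 81, were called lower in flu1-5 ex1 than in flu1-1 ex1. Across all genes tested 5.68% were called lower and 14.7% higher. An unadjusted p under 0.05 was reached by 4 members, and no share of all genes is given here at that threshold. The gene psbN had 93.4, 83.6 and 99.6 TPM in flu1-5 ex1 dark libraries, against 111, 140.3 and 159 TPM in flu1-1 ex1 dark libraries. The gene petN had 57.9, 65.8 and 62.5 TPM in flu1-5 ex1 dark libraries, against 73.5, 67.1 and 79.4 TPM in flu1-1 ex1 dark libraries. The gene rpl32 had 3151, 3295 and 3339 TPM in flu1-5 ex1 dark libraries, against 3763, 3559 and 3705 TPM in flu1-1 ex1 dark libraries. None of the 3 overlapped between lines. Among the 81, 6 lay wholly lower in flu1-5 ex1, where 11.9% of all genes tested did so. The differences of the 3 were -0.55 ± 0.14 (SE, adjusted p = 0.0225), -0.24 ± 0.07 (SE, adjusted p = 0.029) and -0.17 ± 0.05 (SE, adjusted p = 0.0267), in that order. Each call was lost in 4 of the 6 fits that left out 1 library, among them the one without flu1-1 ex1 dark library 3. Relative to the chloroplast total the difference of rpl32 was 0.02 ± 0.14 (SE, adjusted p = 0.937). On that scale psbN and rpl23 were lower, with differences of -0.36 ± 0.10 (SE, adjusted p = 0.0318) and -0.23 ± 0.07 (SE, adjusted p = 0.0316), and rpoB and the partial ycf1 copy higher, by 0.22 ± 0.06 (SE, adjusted p = 0.0272) and 0.29 ± 0.07 (SE, adjusted p = 0.0151), where 5.67% of all genes were called lower and 14.7% higher. For the full ycf1 copy the difference was -0.25 ± 0.11 (SE, adjusted p = 0.15), opposite in sign to that of the partial copy. When 1 library was left out, the calls of psbN and the partial ycf1 copy held in 3 of 6 fits and those of rpl23 and rpoB in 1.

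Most nuclear genes for sigma factors and phage-type polymerases rose in light. Sigma factors and phage-type polymerases formed a list of 8, of which 6 rose and 1 fell in flu1-5 ex1 and 7 rose and 1 fell in flu1-1 ex1, with median changes of 0.41 and 0.48. Of all genes tested, 38.4% were called higher and 29.3% lower in flu1-5 ex1, and 44.0% higher and 28.6% lower in flu1-1 ex1. SIG5, a sigma factor known to be induced by light and stress and to act on the psbD promoter, had 138, 137 and 135 TPM in flu1-5 ex1 light libraries, against 4.3, 4.36 and 5.25 TPM in flu1-5 ex1 dark libraries. It had 117, 122 and 124 TPM in flu1-1 ex1 light libraries, against 3.44, 3.53 and 3.35 TPM in flu1-1 ex1 dark libraries. It rose by 4.61 ± 0.07 (SE, adjusted p = 1.6e-10) in flu1-5 ex1 and by 4.78 ± 0.05 (SE, adjusted p = 2.07e-11) in flu1-1 ex1, beside changes of -0.41 and -0.56 in psbD. SIG1, another sigma factor, had 71.0, 75.4 and 71.5 TPM in flu1-5 ex1 light libraries, against 43.8, 44.0 and 39.8 TPM in flu1-5 ex1 dark libraries. It rose by 0.76 ± 0.05 (SE, adjusted p = 1.24e-06) and by 0.98 ± 0.04 (SE, adjusted p = 3.38e-08). SIG3 had 37.6, 39.5 and 35.3 TPM in flu1-5 ex1 light libraries, against 51.9, 43.3 and 48.0 TPM in flu1-5 ex1 dark libraries. It fell with changes of -0.34 ± 0.07 (SE, adjusted p = 0.00226) in flu1-5 ex1 and -0.42 ± 0.04 (SE, adjusted p = 1.47e-05) in flu1-1 ex1. RPOTp, the phage-type polymerase of plastids, rose by 0.54 ± 0.04 (SE, adjusted p = 3.67e-06) and by 0.71 ± 0.07 (SE, adjusted p = 1.81e-05).

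Proteins associated with the bacterial-type polymerase formed a list of 12. In flu1-5 ex1 8 fell and 1 rose, and in flu1-1 ex1 3 fell and 4 rose, with medians of -0.26 and -0.02, where 29.3% of all genes were called lower and 38.4% higher in flu1-5 ex1, and 28.6% lower and 44.0% higher in flu1-1 ex1. PAP3, a core polymerase-associated protein, had 42.5, 45.2 and 42.1 TPM in flu1-5 ex1 light libraries, against 63.2, 59.6 and 61.4 TPM in flu1-5 ex1 dark libraries. It had 53.8, 51.7 and 54.0 TPM in flu1-1 ex1 light libraries, against 59.2, 57.1 and 60.5 TPM in flu1-1 ex1 dark libraries. Light lay below dark in both lines, and PAP3 fell with changes of -0.50 ± 0.04 (SE, adjusted p = 9.13e-06) in flu1-5 ex1 and -0.15 ± 0.04 (SE, adjusted p = 0.00675) in flu1-1 ex1. PAP2 rose by 0.28 ± 0.04 (SE, adjusted p = 0.000307) in flu1-5 ex1 and by 0.54 ± 0.06 (SE, adjusted p = 4.6e-05) in flu1-1 ex1, and PAP1 fell by 0.30 ± 0.06 (SE, adjusted p = 0.0014) in flu1-1 ex1. FSD3, an iron superoxide dismutase of the nucleoid, had 47.5, 53.3 and 51.1 TPM in flu1-5 ex1 light libraries, against 53.3, 53.6 and 50.7 TPM in dark libraries, and 64.7, 66.5 and 70.0 TPM in flu1-1 ex1 light libraries, against 51.2, 47.6 and 50.1 TPM in dark libraries. FSD3 rose in flu1-1 ex1 by 0.43 ± 0.04 (SE, adjusted p = 2.42e-05), its change in flu1-5 ex1 was -0.05 ± 0.05 (SE, adjusted p = 0.361), and the interaction was -0.48 ± 0.07 (SE, adjusted p = 0.000152). By that test 7 of the 11 members that could be compared between lines were lower in flu1-5 ex1 and none was higher, where 18.3% of all genes were called lower and 11.3% higher.

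Of 14 nuclear genes for chloroplast RNA processing, 4 rose and 6 fell in flu1-5 ex1 and 8 rose and 5 fell in flu1-1 ex1, with medians of -0.06 and 0.14. Across all genes 38.4% were called higher and 29.3% lower in flu1-5 ex1, and 44.0% higher and 28.6% lower in flu1-1 ex1. HCF152, which binds RNAs of the psbB cluster, had 34.6, 37.7 and 33.9 TPM in flu1-5 ex1 light libraries, against 16.3, 13.6 and 14.4 TPM in flu1-5 ex1 dark libraries. It rose by 1.21 ± 0.07 (SE, adjusted p = 7.95e-07) in flu1-5 ex1 and by 1.30 ± 0.05 (SE, adjusted p = 2.9e-08) in flu1-1 ex1. CP29A, an abundant RNA-binding protein, had 568, 623 and 522 TPM in flu1-5 ex1 light libraries, against 954, 898 and 909 TPM in flu1-5 ex1 dark libraries. It fell with changes of -0.69 ± 0.06 (SE, adjusted p = 1.35e-05) in flu1-5 ex1 and -0.50 ± 0.04 (SE, adjusted p = 2.19e-06) in flu1-1 ex1. RNJ, the ribonuclease J of chloroplasts, had 33.4, 33.3 and 32.7 TPM in flu1-5 ex1 light libraries, against 38, 38.6 and 38.7 TPM in dark libraries, and 36.6, 34.7 and 36.7 TPM in flu1-1 ex1 light libraries, against 30.8, 30.0 and 30.8 TPM in dark libraries. It fell by 0.21 ± 0.04 (SE, adjusted p = 0.00099) in flu1-5 ex1 and rose by 0.23 ± 0.04 (SE, adjusted p = 0.000833) in flu1-1 ex1.

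Nuclear genes for subunits of the same complexes fell in the main. Of 48 such genes, 36 fell and 5 rose in flu1-5 ex1 and 36 fell and 4 rose in flu1-1 ex1, with a median of -0.23 in each line, where 29.3% of all genes were called lower and 38.4% higher in flu1-5 ex1, and 28.6% lower and 44.0% higher in flu1-1 ex1. By complex, 10 and 11 of 12 photosystem I genes fell, 8 and 9 of 10 photosystem II genes, and 12 and 11 of 12 ribosomal protein genes, in flu1-5 ex1 and flu1-1 ex1 in that order. PSAD2, for a stromal subunit of photosystem I, had 127, 128 and 126 TPM in flu1-5 ex1 light libraries, against 242, 222 and 228 TPM in flu1-5 ex1 dark libraries. It had 171, 166 and 168 TPM in flu1-1 ex1 light libraries, against 319.8, 338 and 324 TPM in flu1-1 ex1 dark libraries. It fell with changes of -0.85 ± 0.04 (SE, adjusted p = 8.16e-08) and -0.96 ± 0.03 (SE, adjusted p = 9.69e-09). The Rubisco small subunit gene RBCS1B had 5726, 5538 and 5913 TPM in flu1-5 ex1 light libraries, against 4742, 4816 and 4475 TPM in flu1-5 ex1 dark libraries. It rose by 0.29 ± 0.03 (SE, adjusted p = 7.95e-05) in flu1-5 ex1 and by 0.48 ± 0.03 (SE, adjusted p = 8.8e-07) in flu1-1 ex1, whereas rbcL, the large subunit gene, did not pass the threshold in either line.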

How the data were processed

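Total RNA of whole seedlings was sequenced by the authors on a DNBSEQ platform, per the labels' protocols. The submitters' processing notes name kallisto 0.46.2, sleuth 0.30.0 and the TAIR10 build, without their roles. The values used are the TPM in the authors' deposited tables, 1 per line; TPM keeps no depth, so no counting interval is given. Deposited beside them are the authors' fold ratios and p-values, of which the p-values served as an alternative only. Symbols of chloroplast genes come from the community nomenclature; 83 of 83 that could be compared stood in the same order in the RefSeq annotation of TAIR10.1, which also gave coding lengths for 76 members.

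Values were tested as log2(TPM + 1), for genes averaging 1 TPM or more in the libraries fitted, with limma 3.58.1 (trend and robust options, R 4.3.3) and Benjamini-Hochberg adjustment over all genes tested, threshold 0.05; fold changes of low genes are understated on this scale. Each line was fitted on its 6 libraries. Differences between lines used all 12 libraries and the 26684 genes listed with the same transcript in both tables. Shares were compared with two-sided exact permutation tests (SciPy 1.17.1). The code was tested on simulated data. Alternatives were other scalings, filters, pseudocounts and thresholds, a replicate block, the deposited p-value and leaving out each library; leave-one-out fits on the scale of the chloroplast total, and a median ratio in its place, were added after seeing the data. Named genes were a set of 21 core genes, the called gene with the largest rise and fall in each class and comparison, and the 3 most abundant; further genes were named after their values were seen, and 2 members are not reported here by name. Members and lists were chosen with earlier results of these data known.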

Additional observations from a re-analysis of the deposited data

Results flagged for a closer look

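On the deposited TPM scale no chloroplast-encoded gene passed the interaction test of limma for a light response that differs between the lines, given as flu1-5 ex1 minus flu1-1 ex1 on the log2 scale. Relative to the chloroplast total the partial ycf1 copy did, at -0.58 ± 0.11 (SE, adjusted p = 0.00106), and rpoB did, at -0.26 ± 0.09 (SE, adjusted p = 0.0479). The full ycf1 copy, which shares sequence with the partial copy, did not pass this test, at 0.20 ± 0.16 (SE, adjusted p = 0.383). Among the nuclear genes chosen by the naming rule, 11 passed it on the deposited scale. Some were named as the called genes with the largest rise or fall in this same test, so their passing was fixed in advance. Further members of the nuclear lists passed and are not named here. The difference was below 0 for 9 of the 11, a split that the choice of genes shaped. In the full lists, 2 sigma factor and phage-type polymerase genes were called lower and 0 higher, and 7 and 0 polymerase-associated genes. For RNA processing they were 5 and 1, and for the 48 nuclear subunit genes 10 and 7. Of all genes tested, 18.3% were called lower and 11.3% higher. HMR, a polymerase-associated protein also active in phytochrome signalling, differed by -0.48 ± 0.06 (SE, adjusted p = 4.05e-05), and TRXZ, the thioredoxin of the polymerase complex, by -0.37 ± 0.06 (SE, adjusted p = 0.000499). FSD3 differed by -0.48 ± 0.07 (SE, adjusted p = 0.000152), RNJ by -0.44 ± 0.05 (SE, adjusted p = 2.4e-05), PAP3 by -0.35 ± 0.06 (SE, adjusted p = 0.000382), PAP2 by -0.26 ± 0.07 (SE, adjusted p = 0.0194) and SIG1 by -0.22 ± 0.06 (SE, adjusted p = 0.0143). RBCS1B differed by -0.18 ± 0.05 (SE, adjusted p = 0.0119) and PRPL27, for a protein of the large ribosomal subunit, by -0.18 ± 0.04 (SE, adjusted p = 0.00249). The difference was above 0 for PSAO, a photosystem I subunit gene that fell in both lines, at 0.30 ± 0.04 (SE, adjusted p = 0.000181), and for HCF107, which binds psbH RNA, at 0.23 ± 0.08 (SE, adjusted p = 0.0411); the call of HCF107 was lost in 9 of the 12 fits that left out 1 library. PSAO had 1425, 1484 and 1453 TPM in flu1-5 ex1 light libraries, against 1891, 1965 and 1861 TPM in flu1-5 ex1 dark libraries, and 1460, 1564 and 1484 TPM in flu1-1 ex1 light libraries, against 2414, 2464 and 2371 TPM in flu1-1 ex1 dark libraries. HCF107 had 48.2, 50.6 and 46.7 TPM in flu1-5 ex1 light libraries, against 25.2, 22.7 and 23.7 TPM in flu1-5 ex1 dark libraries, and 56.2, 53.1 and 61.2 TPM in flu1-1 ex1 light libraries, against 32.6, 32.3 and 34.4 TPM in flu1-1 ex1 dark libraries. The outlier criterion needs at least 4 samples in a group and was not applied to these groups of 3.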

How the results depend on the processing

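Direction held in flu1-5 ex1 and flu1-1 ex1 under quantile normalization and rescaling over nuclear rows, while the number of genes past the threshold moved with the libraries. Leaving out 1 library gave 11 to 76 genes called lower in flu1-5 ex1 and 16 to 49 in flu1-1 ex1. An adjusted p under 0.01 left 10 and 11, the p-value of the authors' deposited table gave 65 and 73, quantile normalization 46 and 59, a floor of 5 TPM 36 and 39 and no floor 46 and 52. Except for quantile normalization, counts over all genes are not given here for these settings. Quantile normalization took the median of all genes in flu1-5 ex1 to -0.07, against 0.05 as deposited, and in flu1-1 ex1 to -0.02, against 0.12; the chloroplast medians were then -0.58 and -0.72, and among all genes called in flu1-5 ex1 5649 were higher and 7016 lower, against 6973 and 5324 as deposited, and in flu1-1 ex1 6386 and 6751, against 7942 and 5155. Over all genes, replicate numbers showed no general pairing, and what a number marks is not given in the sources used here. Deviations of light and dark libraries of the same number correlated at -0.0414 to 0.0101 in flu1-5 ex1 and 0.0171 to 0.143 in flu1-1 ex1. In these lines 1 and 2 of 6 libraries correlated best with their own number. The 2 were light and dark library 3 of flu1-1 ex1, at 0.143, against -0.0802 to -0.0704 with other numbers. Pairing in flu1-1 ex1 is therefore not settled. With the replicate number as a block, 24 genes in flu1-5 ex1 and 78 in flu1-1 ex1 were called lower.

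Scaling to the chloroplast total gave 16 lower and 5 higher in flu1-5 ex1, 10 and 10 in flu1-1 ex1, and 2 lower for the difference of responses. Between lines it gave 3 lower and 1 higher in light, and 2 lower and 2 higher in dark. Without 1 library these ranged, on this scale, over 7 to 22 and 4 to 8 in flu1-5 ex1, 6 to 15 and 5 to 11 in flu1-1 ex1, 1 to 5 lower and 0 to 1 higher for the difference, 1 to 3 higher in light, and 0 to 1 lower and 0 to 2 higher in dark. A median ratio in place of the total gave 10 higher in flu1-5 ex1, 4 higher between lines in light and 1 lower in dark. On the deposited scale, without 1 library, 0 to 2 genes were called higher for the difference, 0 to 1 lower between lines in light and 0 to 2 lower in dark; quantile normalization gave 1 higher for the difference, and a threshold of 0.01 gave 0 in dark. Relative to the chloroplast total single genes changed sign by construction. In flu1-5 ex1 these were atpH at 0.09, rpoB at 0.10, psbD at 0.05, psaB at 0.02, psaA at 0.08, atpE and ndhB at 0.00, rbcL at 0.17, clpP at 0.02, psbB at 0.08 and petB at 0.04. In flu1-1 ex1 they were psbA at 0.57, atpH at 0.05, rpoC1 at 0.17, rpoB at 0.36, psbD at 0.08, psaB at 0.09, psaA at 0.10, atpE at 0.12, atpB at 0.08, rbcL at 0.14, accD at 0.11, psbB at 0.13, ndhB at 0.08 and rpl32 at 0.04, and between lines in dark rpl32 at 0.02. Without 1 library psbA in flu1-5 ex1 ranged from -0.04 to 0.15. The chloroplast share of flu1-5 ex1 against flu1-1 ex1 in light, -0.00309 points, was 0.00364 without the 3 most abundant genes, 0.00143 with 1 copy of each repeat gene and -0.176 to 0.125 without 1 library. The ATP synthase share in flu1-5 ex1, 0.234 points higher in light, was -0.391 without the 3 most abundant genes and -0.0199 to 0.566 without 1 library. In flu1-1 ex1 the ATP synthase share ranged from -0.313 to 1.12, that of the large ribosomal subunit from -2.51 to 0.191 and that of other genes from -0.232 to 0.112. The cause of these shifts was not tested. TPM gives no depth, so no detection limit can be stated for the low genes.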
